A study of Homo sapiens with 22 samples.

Results

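The regions described here are sites where Rad21, a core subunit of the cohesin ring, gained a peak during PMA treatment of K562 cells, where Jun also had a peak, and where CTCF had none. They were chosen by peak overlap of at least 1 bp from the Rad21 region table on chromosomes 1 to 22 and X: a Rad21 peak in both 72 h libraries and in neither 0 h library, a Jun peak in both 72 h libraries, and no peak in any of the 6 CTCF libraries. Of 109111 Rad21 regions, 107902 lay on those chromosomes and 16122 of these had a Rad21 peak in both 72 h libraries. A peak in neither 0 h library left 4289, the absence of CTCF peaks left 2152, and the Jun requirement left 1893 regions, 1.75% of those on the chromosomes used. The choice therefore rests on measured Rad21 and Jun peaks, and the Rad21 values at both times, the Jun values at 72 h and the CTCF values are given below as descriptions without a test. H3K27ac at all times and the Jun change between 0 and 6 h were not used in the choice and were tested.

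K562 is a human leukemia line with erythroid features, used here as wild-type cells. Fixation was in 1% formaldehyde for 10 min, and the 22 libraries form 11 groups of 2, each given by its antibody and its time in 25 nM PMA, a phorbol ester that activates protein kinase C and drives the line towards a megakaryocyte-like state. H3K27ac, CTCF and Jun were profiled by CUT&RUN, in which an antibody-directed nuclease releases DNA beside its target, at 0, 6 and 72 h. Rad21 was profiled at the first and last of these times. The 0 h cells are the untreated control, and a further H3K27ac comparison sets 72 h against the treated cells of 6 h. No label says that libraries of a group came from separate cultures, so p-values measure only the spread between these libraries, which may be technical. Summed over its regions, an H3K27ac library held between 12634261 and 27266241 counts. The sums lay between 4766421 and 18883962 for Jun, 2553677 and 6068421 for CTCF, and 4398797 and 7285286 for Rad21. The yield of Jun differed by time: the Jun libraries of 72 h held 92329 and 99102 peaks against 31637 and 35072 at 0 h. Of 10 genes that mark the K562 state, 8 carried an H3K27ac peak in both 0 h libraries, HBE1 carried none and GATA1 carried one in a single library. Of 12 genes that mark T, B, epithelial or fibroblast cells, 6 did, with 72.4 and 78.3 CPM (read counts normalised to library size, with TMM, the trimmed mean scaling of edgeR) at CD2 and 51.9 and 51.7 CPM at KRT8, while PAX5, MS4A1, CD3E, COL1A1 and COL3A1 had no peak in either. Neighbouring genes can supply such a peak, and the part of other cell types in the results was not tested. The libraries were made from whole cultures, so a larger share of cells with a signal and more signal per cell cannot be told apart.

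Cohesin is a ring that holds DNA strands and extrudes loops. It usually pauses where CTCF is bound, and it is also found at active enhancers and promoters without CTCF, near sites of transcription factors and of the loader NIPBL. Jun is a subunit of AP-1, a basic leucine zipper factor that dimerises with Fos or other Jun family proteins, recognises TGANTCA and is an effector of protein kinase C and MAP kinase signalling. Acetylation of lysine 27 on histone H3 marks active promoters and enhancers.

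Most of the regions lie away from gene starts, and the sequences at hand cover promoters only, so motifs were searched in the 300 bases from 250 before to 50 after each RefSeq start (GRCh38.p14). In all, 83 members overlapped 101 such windows. TGANTCA, which reads the same on both strands, was present in 37 of the 101 windows (36.6%) and in 2684 of 34961 promoter windows on the same chromosomes (7.68%). The longer MAF-type form GCTGAGTCA, which contains TGANTCA, was in 7 (6.93%) against 0.563%, and the cyclic AMP response element TGACGTCA, searched on both strands, was in 12 (11.9%) against 1.85%. The GATA letters AGATAA were in 5 windows (4.95%) against 10.3%, the RUNX letters TGTGGTT in 0 against 4.28%, the ETS letters CCGGAAG in 20 (19.8%) against 10.3%, and the KLF letters CCCACCC in 27 (26.7%) against 19.6%, each on both strands. The core of the CTCF motif was in 0 against 0.472%. Other cohesin sites also held ETS and KLF letters. In 667 windows over Rad21 regions with a peak in all 4 libraries and no CTCF peak, the shares were 22.3% and 20.4%. In 22 windows over new Rad21 regions without CTCF and Jun peaks they were 40.9% and 27.3%, and in 18 over new ones with CTCF in all 6 libraries 11.1% and 16.7%. TGANTCA was in 4.95%, 0% and 11.1% of these 3 sets of windows. Members were chosen by Jun peaks and by the absence of CTCF peaks, and the sets compared also by Rad21, Jun or CTCF peaks. The shares of TGANTCA and of the CTCF core are therefore not independent of the choice. Overlapping windows of one gene share bases, and a match is a description of letters, not of binding.

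The 250 bases before the start are shown for the coding genes with a pair of TGANTCA motifs inside both the window and the member (EMP1, IL1A, CPA4 and MBNL2), for LINC01615, whose member had no H3K27ac counts at 0 h, and for SKIL, a listed gene whose promoter overlapped a member and has no such motif. The SKIL sequence does hold the response element TGACGTCA, which is not capitalised below. The set was chosen after its values were seen. Sequences are from RefSeq, 5′ to 3′ on the strand of the gene, with TGANTCA in capitals. EMP1 (epithelial membrane protein) is at chr12:13196476-13196725 on the plus strand, IL1A (the cytokine interleukin 1 alpha) at chr2:112784401-112784650 on the minus strand, CPA4 (a carboxypeptidase) at chr7:130292911-130293160 on the plus strand, MBNL2 (a splicing regulator) at chr13:97141584-97141833 on the plus strand, LINC01615 (a long noncoding RNA) at chr6:169162990-169163239 on the minus strand, and SKIL (a repressor of SMAD signalling) at chr3:170357465-170357714 on the plus strand.
EMP1: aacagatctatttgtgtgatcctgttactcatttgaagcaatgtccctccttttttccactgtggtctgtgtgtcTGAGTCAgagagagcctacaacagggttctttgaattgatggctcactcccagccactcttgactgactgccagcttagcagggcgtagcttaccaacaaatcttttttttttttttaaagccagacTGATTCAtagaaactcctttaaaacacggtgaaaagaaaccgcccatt
IL1A: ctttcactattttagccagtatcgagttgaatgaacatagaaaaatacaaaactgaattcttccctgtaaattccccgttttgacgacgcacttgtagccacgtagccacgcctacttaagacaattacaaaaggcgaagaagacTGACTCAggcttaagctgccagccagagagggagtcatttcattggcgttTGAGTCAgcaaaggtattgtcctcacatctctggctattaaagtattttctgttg
CPA4: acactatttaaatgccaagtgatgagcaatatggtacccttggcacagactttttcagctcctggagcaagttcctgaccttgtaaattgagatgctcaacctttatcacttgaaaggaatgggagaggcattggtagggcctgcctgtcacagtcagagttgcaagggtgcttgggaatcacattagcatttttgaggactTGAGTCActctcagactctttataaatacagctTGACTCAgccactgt
MBNL2: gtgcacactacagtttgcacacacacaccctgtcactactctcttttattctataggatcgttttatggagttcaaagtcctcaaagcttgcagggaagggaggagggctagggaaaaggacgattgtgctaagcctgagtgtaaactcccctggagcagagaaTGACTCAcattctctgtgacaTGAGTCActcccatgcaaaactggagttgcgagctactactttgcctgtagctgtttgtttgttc
LINC01615: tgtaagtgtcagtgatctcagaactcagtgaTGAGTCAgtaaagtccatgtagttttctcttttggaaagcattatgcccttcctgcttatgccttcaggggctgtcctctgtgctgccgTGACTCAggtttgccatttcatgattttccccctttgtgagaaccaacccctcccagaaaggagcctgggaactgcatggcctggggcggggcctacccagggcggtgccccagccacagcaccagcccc
SKIL: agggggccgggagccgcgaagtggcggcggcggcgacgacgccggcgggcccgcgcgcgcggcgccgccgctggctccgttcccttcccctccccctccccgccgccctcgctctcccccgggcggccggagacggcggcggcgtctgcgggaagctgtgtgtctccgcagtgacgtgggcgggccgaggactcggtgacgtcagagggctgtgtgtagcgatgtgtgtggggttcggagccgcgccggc

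Counted from the start site as 0, the motifs began at -175 and -48 in EMP1, at -105 and -55 in IL1A, at -48 and -15 in CPA4, at -86 and -65 in MBNL2 and at -219 and -130 in LINC01615. At EMP1, H3K27ac was 0 and 0.316 CPM at 0 h, 4.34 and 3.4 after 6 h and then 6.8 and 7.83 by 72 h. At IL1A it was 2.95 and 2.53 CPM, 14.4 and 12.8, and 35.2 and 39.5 at these times. At CPA4 it was 1.14 and 2 CPM, 12.8 and 10.2, and 58.6 and 59.4. In these 3 promoters each later time point lay above the one before it in both libraries, and the log2 fold changes at 72 against 0 h were 5.43 (SE 0.43), 3.77 (SE 0.16) and 5.21 (SE 0.18), with edgeR adjusted p of 1.43e-11, 3.09e-17 and 8.75e-19 in that order. MBNL2 was acetylated from the start, at 34 and 34.6 CPM, and reached 42.5 and 51.2 CPM at 72 h (log2 fold change 0.45, SE 0.11, edgeR adjusted p = 0.000561). SKIL, without TGANTCA but with TGACGTCA, had 9.2 and 10.5 CPM at 0 h and 14 and 15.6 at 72 h (log2 fold change 0.59, SE 0.15, edgeR adjusted p = 0.00103). Among the 32 promoter members with TGANTCA inside both window and member, H3K27ac at 72 against 0 h was called higher in 22 and lower in 3 of 31 tested, with a median log2 fold change of 3.07. Over all tested H3K27ac regions, 43.4% were called higher and 38.1% lower, with a median of 0.18. Among the other 51, it was called higher in 14 and lower in 26 of 50, with a median of -0.43. With peak-based scaling (factors computed only on regions called in all libraries of the antibody), these counts were 29 and 1, and 25 and 18, the second median was 0.18, and 53.8% and 24.6% of all regions were called. The difference between the sets was not tested.

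Rad21 rose from a low level to one below that of CTCF-bound cohesin sites. The median member had 2.52 and 2.53 CPM in the 0 h libraries and 8.19 and 8.29 in the 72 h libraries. At the 3477 regions with a Rad21 peak in all 4 libraries and a CTCF peak in all 6, the medians were 16.7 and 15.2 CPM at 0 h and 14.4 and 14 at 72 h. At 72 h, 65.9% and 69.7% of members lay below the lower quartile of those CTCF sites, which was 9.82 and 9.99 CPM. The median log2 fold change of Rad21 over members was 1.74, with the 5th percentile at 0.58 and the 95th at 3.2, and it was -0.05 over all tested Rad21 regions. Both 72 h libraries lay above both 0 h libraries at 1862 members, the ranges overlapped at 29, and 2 members were lower at 72 h. These values follow from the choice of members, and the same count over all Rad21 regions was not made.

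**Figure D1:**
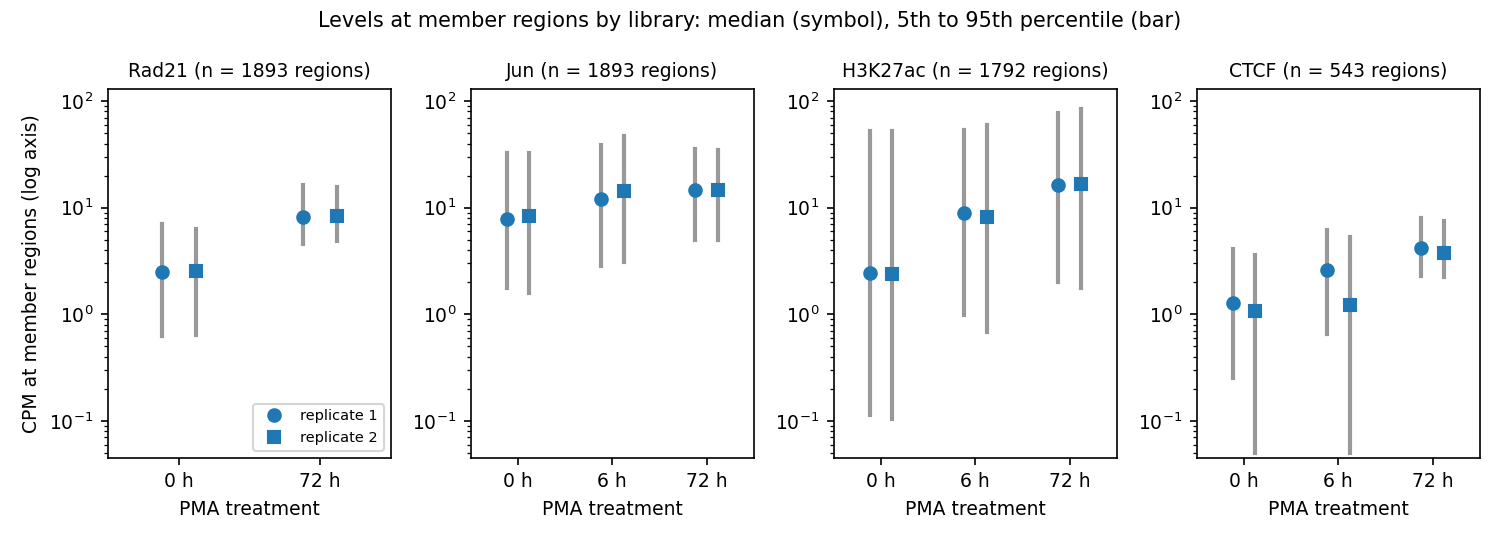
Levels at the member regions in each library, in CPM on a log axis, by hours of PMA: symbols are medians over regions, bars run from the 5th to the 95th percentile, and a bar that reaches the lower edge starts at 0. Median H3K27ac was 2.44 and 2.37 CPM at 0 h and 16.3 and 16.6 at 72 h, and median Rad21 was 2.52 and 2.53 against 8.19 and 8.29.

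The threshold of the choice was a called peak. The lowest −log10 q of a member was 2.04 and 2.49 in the Rad21 lists of 72 h, with medians of 7.45 and 6.87. Just outside, 6942 regions had a Rad21 peak in only 1 of the 72 h libraries and met the rest of the rule, with median Rad21 of 4.91 and 4.52 CPM at 72 h and a median log2 fold change of 1.49. A further 655 had a peak in 1 of the 0 h libraries, with medians of 6.92 and 6.12 CPM at 0 h and a median log2 fold change of 0.53. Only 43 regions missed the rule for a Jun peak in 1 of the 72 h libraries. The number of members rested on single libraries: without the Rad21 replicate 2 library of 72 h the rule gave 6723 regions, without replicate 1 4005, and without the CTCF replicate 2 library of 72 h 2656.

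The 8 members with the highest mean Rad21 level at 72 h include 4 in the immunoglobulin lambda locus (IGL) on chromosome 22 and one in the T cell receptor beta locus (TRB) on chromosome 7. CPM values are not corrected for copy number. At chr22:22721894-22722503 in IGL, Rad21 was 10.5 and 14.6 CPM at 0 h and 72 and 57.9 at 72 h, the highest level of any member. At chr22:22728354-22729050 it was 10.5 and 11 against 41.1 and 38.5 CPM, at chr22:22037685-22038256 9.12 and 11 against 31.7 and 29.4, and at chr22:22033481-22034024 5.35 and 6.33 against 31.6 and 27.3. The 0 and 72 h libraries did not overlap at any of these 4. The TRB member, chr7:142807642-142808465, had 8.65 and 7.18 CPM at 0 h and 49 and 38.6 at 72 h. In the span of GFOD1, chr6:13465774-13466751 went from 3.93 and 4.01 to 31.9 and 30 CPM, and in LINC-PINT, a noncoding gene, chr7:130903495-130904471 went from 7.08 and 4.85 to 29.6 and 24.5. The remaining one, chr2:242176884-242177530, outside gene spans, had 31.1 and 23.9 CPM at 0 h and 33.3 and 28.3 at 72 h, so its counts overlapped between the times although no peak was listed at 0 h.

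H3K27ac at these strong members was tested. At chr22:22721894-22722503, H3K27ac measured 7.21 and 9.64 CPM before PMA, 72.8 and 65.2 after 6 h, and 364 and 387 after 72 h. The 72 h mean was 375 CPM ± 16.4 (SD, n = 2). The rise was 5.47 on the log2 scale (SE 0.15, edgeR quasi-likelihood test with Benjamini-Hochberg adjustment, adjusted p = 3.36e-20). All 6 members in the IGL span were called higher at 72 against 0 h, with log2 fold changes from 1.19 to 5.51, beside 82.1% of all tested members and 43.4% of all regions. The TRB member already had 71.1 and 78.5 CPM at 0 h and reached 185 and 209 (log2 fold change 1.40, edgeR adjusted p = 1.99e-11). The GFOD1 member rose from 3.29 and 3.27 CPM to 42.1 and 43.4 after 6 h and then 69.7 and 85.9 by 72 h. The chr2 member, whose Rad21 counts overlapped between the times, had 70.2 and 62.9 CPM at 0 h and 56.4 and 63.4 at 72 h (log2 fold change -0.15, edgeR adjusted p = 0.252).

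Across the members, H3K27ac was called higher at most of those tested at 6 against 0 h, and at most of them at 72 against 6 h. Members called higher in both of these steps were not counted. An H3K27ac region overlapped 1792 members, and 1791 passed the filter on low counts. The other members had no H3K27ac region to count in. At 6 against 0 h, 1370 members were called higher (76.5%) and 149 lower (8.32%), against 32.3% and 26.3% of all 94865 tested H3K27ac regions. At 72 against 0 h, 1470 were higher (82.1%) and 147 lower (8.21%), against 43.4% and 38.1%. At 72 against 6 h, 1113 were higher (62.1%) and 225 lower (12.6%), against 33.1% and 30.8%. The median log2 fold changes over members were 1.59, 2.49 and 0.74, and over all tested regions 0.2, 0.18 and 0.02. Median H3K27ac was 2.44 and 2.37 CPM at 0 h, 8.92 and 8.24 after 6 h and then 16.3 and 16.6 by 72 h, so libraries of one time point were close to each other. Calls are at an adjusted p under 0.05 in the edgeR quasi-likelihood test, adjusted over every tested region, and the contrasts share libraries. With peak-based scaling, the median over all regions at 72 against 0 h was 0.79, and 91.6% of members were called higher and 3.69% lower, against 53.8% and 24.6% of all regions. Regions were merged over libraries, so a member without a 0 h peak could be counted through peaks of later times alone. Members with no H3K27ac peak at 0 h were higher at 1167 and lower at 18 of 1263 tested at 72 against 0 h. With a peak in 1 of the 0 h libraries, 115 were higher and 9 lower of 149. Those with a peak in both 0 h libraries were higher at 188 and lower at 120 of 379, with a median log2 fold change of 0.28.

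The peak lists differ in length between the times, so no order of appearance is read from them. The H3K27ac lists held 42125 and 42852 peaks at 0 h, then 36947 and 39680 after 6 h, but 65267 and 66147 by 72 h. The Jun lists of 6 h held 23946 and 35376 peaks, fewer than those of 72 h. An H3K27ac peak in both libraries overlapped 379 members (20%) at 0 h, 748 (39.5%) at 6 h and 1582 (83.6%) at 72 h, while by counts 76.5% of tested members were already higher at 6 h. The most frequent pattern was a peak at 72 h alone, at 800 members, followed by 6 and 72 h at 413 and all 3 times at 312, and 283 had no peak in both libraries at any time. Jun peaks in both libraries were present at 861 members at 0 h (45.5%) and 1108 at 6 h (58.5%), and at 72 h by the rule. Jun was listed at 72 h alone at 600 members and at all 3 times at 676.

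The 6 members with the highest fitted H3K27ac log2 fold change at 72 against 0 h, among those above the median level, had no or very few counts at 0 h. At 5 of them both 0 h libraries had 0 counts, so the fitted order is not an order of measured rises, and the folds are lower bounds against a floor of 3 counts per library. The INHBA member described below, outside these 6, had a fitted value of 8.73 with counts in both 0 h libraries. H3K27ac at chr9:90044532-90045087, outside gene spans, was at least 113-fold higher at 72 h, with 16.3 and 21 CPM. The member over the start of LINC01615, chr6:169162952-169163441, had 7.7 and 6.74 CPM after 6 h and then 18.5 and 17.7 by 72 h, at least 110-fold higher. Members in ARNT2, a bHLH-PAS factor gene, in SMOC1, a matrix protein gene, and near LRRC38 were at least 88.3-fold, 74.3-fold and 63.3-fold higher. In HIVEP3, a zinc finger gene, chr1:41743530-41744294 went from 0.114 and 0.105 CPM to 45.1 and 45.4 after 6 h and then 69.1 and 76.6 by 72 h (log2 fold change 9.30, SE 0.23, edgeR adjusted p = 1.91e-20). These 6 had Rad21 between 5.09 and 17.6 CPM in the 72 h libraries.

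The 6 members with the largest H3K27ac fall had between 7.96 and 122 CPM at 0 h. In MAP3K12, a MAP kinase kinase kinase gene, chr12:53493056-53493495 had 50.6 and 53.5 CPM at 0 h, 21.3 and 24.1 after 6 h and then 11.5 and 11.3 by 72 h (log2 fold change -2.20, SE 0.11, edgeR adjusted p = 3.29e-15). Near CDC73, a subunit of the PAF1 complex, chr1:193115618-193116041 had 108 and 97.8 CPM at 0 h and 24.5 and 23 at 72 h. Near NOL11, chr17:67783335-67783716 fell from 122 and 121 to 28.7 and 30 CPM, and in LINC02334 chr13:37959253-37960061 fell from 74.7 and 72.2 to 15.9 and 19.2. The members in GSE1 and near MAP1LC3B2 fell by 2.20 and 2.08 on the log2 scale. Rad21 counts at the NOL11 and LINC02334 members overlapped between the times, with log2 fold changes of -0.07 and -0.35, although both met the peak rule.

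Jun rose at 860 members within 6 h. All 1893 had a tested Jun region. At 6 against 0 h Jun was called higher at 860 (45.4%) and lower at 126 (6.66%), against 13.1% and 12.2% of the 132947 tested Jun regions, and 907 were not called. The median log2 fold change was 0.62 over members and 0.06 over all tested regions. All members had a Jun peak at 72 h by the rule. Among 46216 tested Jun sites of 72 h without Rad21 and CTCF peaks, a set described below, 19.5% were called higher and 5.32% lower, with a median of 0.37. Median Jun was 7.88 and 8.31 CPM at 0 h, 12 and 14.2 after 6 h and then 14.6 and 14.6 by 72 h. Both 6 h medians lay above both 0 h medians. One library bore on the count: without replicate 2 of 6 h, 30.8% of members were called higher and 7.98% lower, against 8.73% and 10.9% of all regions, and without replicate 2 of 0 h 3.38% were lower. As a description, the median log2 fold change at 72 against 0 h was 0.75, and 1.31 when scaled to total counts in regions, while all Jun regions shifted by 0.17 and 0.73 under the same scalings.

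The largest fitted Jun rise at 6 h was near INHBA, which encodes the activin A subunit of the TGF-beta family. At chr7:41709603-41710062, within the antisense gene INHBA-AS1, Jun was 1.02 and 0.287 CPM at 0 h, 7.26 and 11.9 after 6 h and then 17.2 and 19.2 by 72 h (log2 fold change at 6 h 3.88, SE 0.44, edgeR adjusted p = 2.40e-06). H3K27ac there was 0.114 and 0.211 CPM at 0 h, 10 and 10.5 after 6 h and then 66.1 and 78 by 72 h, and Rad21 went from 0.943 and 1.48 to 10.6 and 9.8. In ERG, an ETS factor gene expressed in megakaryocytes, Jun at chr21:38645357-38645907 rose from 1.17 and 2.58 CPM to 22.7 and 24.3 (log2 fold change 3.64, SE 0.30, edgeR adjusted p = 6.95e-08). The 3 largest falls lay outside gene spans. Their nearest coding genes were POGK, COMMD10 and C1D, with spans 138530, 65571 and 871 bp away. Jun fell from 24.1 and 23.2 to 4.99 and 2.01 CPM at the first, and the log2 fold changes were -2.81, -2.53 and -2.02.

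Members were also split by whether Jun already had a peak at 0 h. Over all tested H3K27ac regions, 43.4% were called higher and 38.1% lower at 72 against 0 h. With no Jun peak at 0 h (758 members), H3K27ac at 72 against 0 h was higher at 648 and lower at 23 of 704 tested (92% higher), and the median Rad21 log2 fold change was 2.15. With a Jun peak in both 0 h libraries (861), it was higher at 606 and lower at 104 of 828 (73.2%), and the median Rad21 log2 fold change was 1.41. The members without Jun at 0 h started lower and stayed lower at 72 h. Their median H3K27ac was 0.795 and 0.843 CPM at 0 h, against 5.79 and 5.56 with Jun in both libraries. At 72 h it was 13 and 13.3 against 18.6 and 18.4. Median Rad21 was 1.73 and 1.69 against 3.46 and 3.38 CPM at 0 h, and 7.74 and 7.73 against 8.78 and 8.86 at 72 h. The same split by H3K27ac peaks at 0 h gave median Rad21 log2 fold changes of 1.97 at 1365 members not acetylated and 1.07 at 379 acetylated in both libraries. The difference between these classes was not tested. Over the 1791 members with both values, the log2 fold changes of Rad21 and H3K27ac at 72 against 0 h had Pearson's r of 0.70 and Spearman's rho of 0.72, a description over regions that share their libraries.

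**Figure D2:**
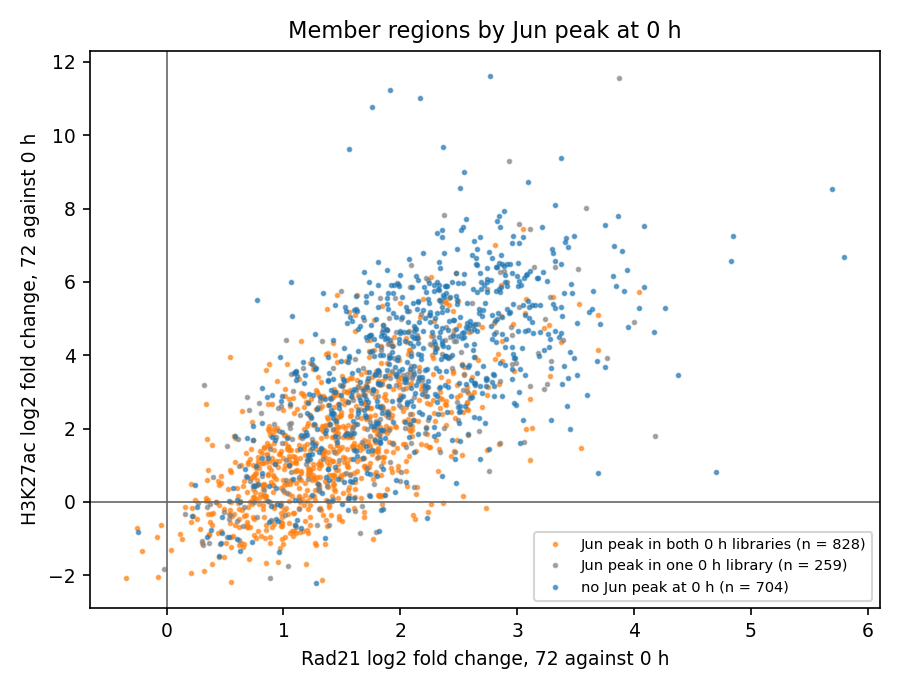
Each point is a member region: the x axis is the Rad21 and the y axis the H3K27ac log2 fold change at 72 against 0 h, coloured by the Jun peak calls at 0 h. Points without a Jun peak at 0 h lie farther up and right, with a median Rad21 log2 fold change of 2.15 against 1.41 for those with Jun in both 0 h libraries. Their median levels of Rad21 and H3K27ac were lower at both times.

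CTCF counts were low at most members that could be counted, and no CTCF peak was listed at any member. A region of the CTCF table overlapped 543 members, of which 504 passed the filter. Over the 543, the median CTCF level was 1.27 and 1.08 CPM at 0 h, 2.59 and 1.22 after 6 h and then 4.15 and 3.79 by 72 h, with the 6 h libraries apart from each other. In counts, the 0 h medians were 5 and 3, those after 6 h 8 and 3, and those of the last time 18 and 27. Some members had more CTCF signal without a listed peak. The IGL member chr22:22037685-22038256 had 4.84 and 8.3 CPM at 0 h and 26.7 and 18.8 at 72 h. For chr22:22033481-22034024, also in IGL, the values were 1.78 and 3.61 against 15.9 and 12.9 CPM. New Rad21 regions with CTCF peaks in all 6 libraries had medians of 23.3 and 22.6 CPM at 72 h. A member could be counted and pass the filter through its 72 h libraries alone, so no direction is read from these levels. A CTCF peak of any library lay within 1 kb of 151 members. Its part in the Rad21 gain was not tested. Of 3258 regions that met the rest of the rule, 913 had a CTCF peak in a single library, and 763 of these had it in replicate 2 of 72 h, whose list is the longest with 40805 peaks. Only 52 had a CTCF peak in all 6 libraries.

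Most members lay far from the known coding starts and from CTCF peaks. Their median length was 464 bp (233 to 1244). The median distance to a CTCF peak present in both 72 h libraries was 25424 bp, with quartiles of 9079 and 57463. Start sites were known for 15843 of 20056 coding genes, and none on chromosome 8, so start distances are upper bounds. Of 1804 members with an entry on the chromosome, 85 (4.71%) had their midpoint within 1 kb of a coding start, and the median distance was 39525 bp. The span of a coding gene held 965 members (51%). The Rad21 and Jun summits at 72 h were a median 78 and 81 bp apart in the 2 replicates, and within 100 bp at 58.9% and 58.8% of members. At the 85 members near a start, H3K27ac at 72 against 0 h was higher at 23 and lower at 42 of 83 tested, against 43.4% and 38.1% of all regions, with a median log2 fold change of -0.33 and median levels of 40.3 and 41.3 CPM at 0 h. That direction turned with peak-based scaling, under which 44 were higher and 26 lower and the median was 0.28. At the 1719 farther ones it was higher at 1378 and lower at 98 of 1625, with a median of 2.60 (3.21 with peak-based scaling).

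Members were set beside other cohesin sites without and with CTCF. The 1320 regions with a Rad21 peak in all 4 libraries and no CTCF peak had H3K27ac at 72 against 0 h higher at 220 and lower at 836 of 1260 tested, against 43.4% and 38.1% of all regions, with a median log2 fold change of -0.60. That direction depended on the scaling: with peak-based scaling the calls were 461 and 439 and the median 0.01, while members had 1640 and 66 and a median of 3.10. In the same set, Jun at 6 against 0 h was higher at 26 and lower at 634 of 1284, against 13.1% and 12.2% of all Jun regions. When scaled to total counts, 17.4% and 8.59% of all Jun regions were called, and Jun in this set was not recounted under that scaling. In that set 33.4% lay within 1 kb of a coding start, against 4.71% of members. The 137 regions with new Rad21 and CTCF in all 6 libraries had H3K27ac higher at 44 and lower at 13 of 70 tested, with a median of 1.23, and a median Rad21 log2 fold change of 0.75. New Rad21 regions with no CTCF peak in any library and no Jun peak at 72 h numbered 216, and 8 of them had a Jun peak in both 0 h libraries; 34 had a tested H3K27ac region, with 6 higher and 20 lower, or 14 and 8 with peak-based scaling. Jun sites of 72 h with no Rad21 and no CTCF peak, a set added after values were seen, had median Jun of 4.47 and 4.54 CPM at 72 h against 14.6 and 14.6 at members. Of these 46218 Jun sites, 24212 had a tested H3K27ac region, against 1791 of 1893 members, so the shares leave out many sites. Among those tested, H3K27ac at 72 against 0 h was higher at 17205 (71.1%) and lower at 3341 (13.8%), with a median of 2.01. The differences between sets were not tested.

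**Figure D3:**
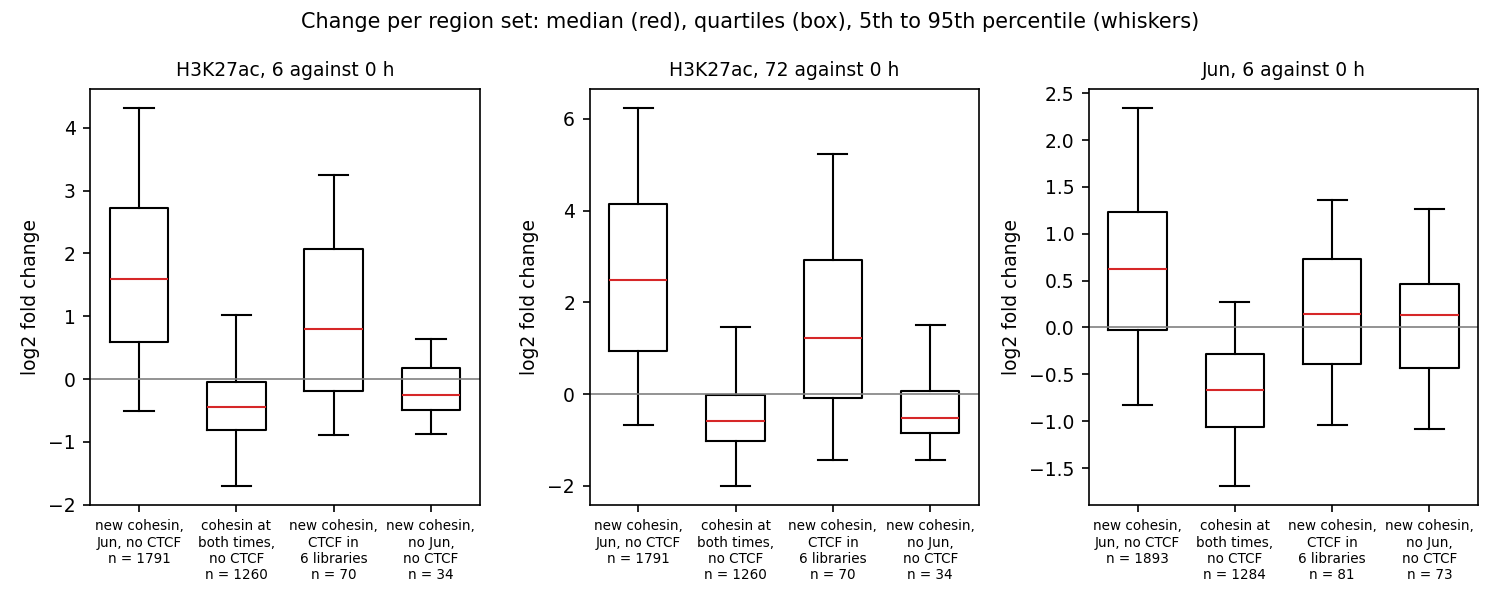
Boxes show the quartiles, red lines the medians and whiskers the 5th to 95th percentile of the log2 fold change per region in 4 sets of Rad21 regions, for H3K27ac at 6 and 72 h and Jun at 6 h, each against 0 h. Members had medians of 1.59, 2.49 and 0.62, and cohesin sites present at both times without CTCF -0.45, -0.60 and -0.67 (-0.10 and 0.01 in place of -0.45 and -0.60 with peak-based scaling).

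The gene lists were read by members in or within 50 kb of a gene span, a distance that does not assign a target. Of 148 listed genes, 35 had a member nearby. The counts below stand beside 82.1% of all tested members called higher and 8.21% lower in H3K27ac at 72 against 0 h, with a median log2 fold change of 2.49, and 43.4% and 38.1% of all regions, with a median of 0.18. Nothing particular to a list is read from them. Platelet and megakaryocyte genes had 16 members near 8 of 33 genes, all tested, with 14 called higher in H3K27ac at 72 against 0 h, a median of 2.21, and 11 at 6 h, when 76.5% of members and 32.3% of all regions were higher. LTBP1, which binds latent TGF-beta, held 4 members in its span, all higher, such as chr2:33135623-33136167 with 10.7 and 9.59 CPM at 0 h and 89.2 and 99.4 at 72 h. Near ITGB3, the platelet integrin beta 3 gene, H3K27ac went from 19.6 and 19.8 to 48.5 and 58.2 CPM, with 22.4 and 22.4 at 6 h. Near CD9, a tetraspanin gene, it went from 0.625 and 1.05 to 22.4 and 22.4. RUNX1, a factor of megakaryocyte development, held 3 members, of which 1 was called higher, and the others, the remaining ones of the list not called, had log2 fold changes of 0.08 and -0.07.

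Among protein kinase C and MAP kinase feedback genes, 16 members lay near 10 of 22 genes, with 14 higher and 1 lower of 15 tested at 72 against 0 h and a median of 2.06, beside 82.1% of members and 43.4% of all regions higher. PRKCE, which encodes a protein kinase C that phorbol esters activate, held 3 members, and chr2:45668873-45669468 went from 2.21 and 2.32 CPM to 51.2 and 58.1. A member near DUSP6, an ERK phosphatase gene, had Rad21 of 7.7 and 3.8 CPM at 0 h and 26.8 and 24.1 at 72 h, and its H3K27ac rose from 14.4 and 18.4 to 65.5 and 71.3. The one called lower lay near PRKCD (log2 fold change -0.33), and it was higher (0.27) with peak-based scaling. Of AP-1 and bZIP genes, 4 of 16 had members, 6 in all, 5 higher and 1 lower, with a median of 2.78: near ATF3 H3K27ac went from 1.25 and 1.21 to 70 and 74.1 CPM, and in BACH1 it fell from 30.6 and 29.7 to 15.6 and 15.

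The adhesion and matrix list had 9 members near 6 of 25 genes, all called higher at 72 h with a median of 2.08, beside 82.1% of members and 43.4% of all regions, and shares the member between VCL and PLAU with the platelet list. Near PLAU, the urokinase gene, chr10:73898902-73899509 went from 3.52 and 3.27 to 47 and 56.8 CPM, and near LAMB3, a laminin chain gene, chr1:209607169-209607850 in the span of CAMK1G went from 0 and 0.105 to 7.6 and 5.79. TGF-beta and SMAD genes had 6 members near 4 of 12 genes, all called higher at 72 h (5 by DESeq2) with a median of 1.72, with the INHBA member described above the largest. Erythroid genes had 3 members near 3 of 25 genes, with the one in ANK1, a membrane skeleton gene, called higher at 6 and 72 h, and the other 2 called lower at 6 h and not called at 72 h. With peak-based scaling, all 3 were called higher at 72 h. Near GATA1, the erythroid master regulator, chrX:48794839-48795618 had 40.2 and 44.8 CPM at 0 h, 15.3 and 19.1 after 6 h and then 35.9 and 37.7 by 72 h. Near TFR2, a transferrin receptor gene, it had 77.8 and 78.6, 52.9 and 52.7, and 81.1 and 80 CPM. None of 15 cohesin and loop extrusion genes had a member within 50 kb.

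**Figure D4:**
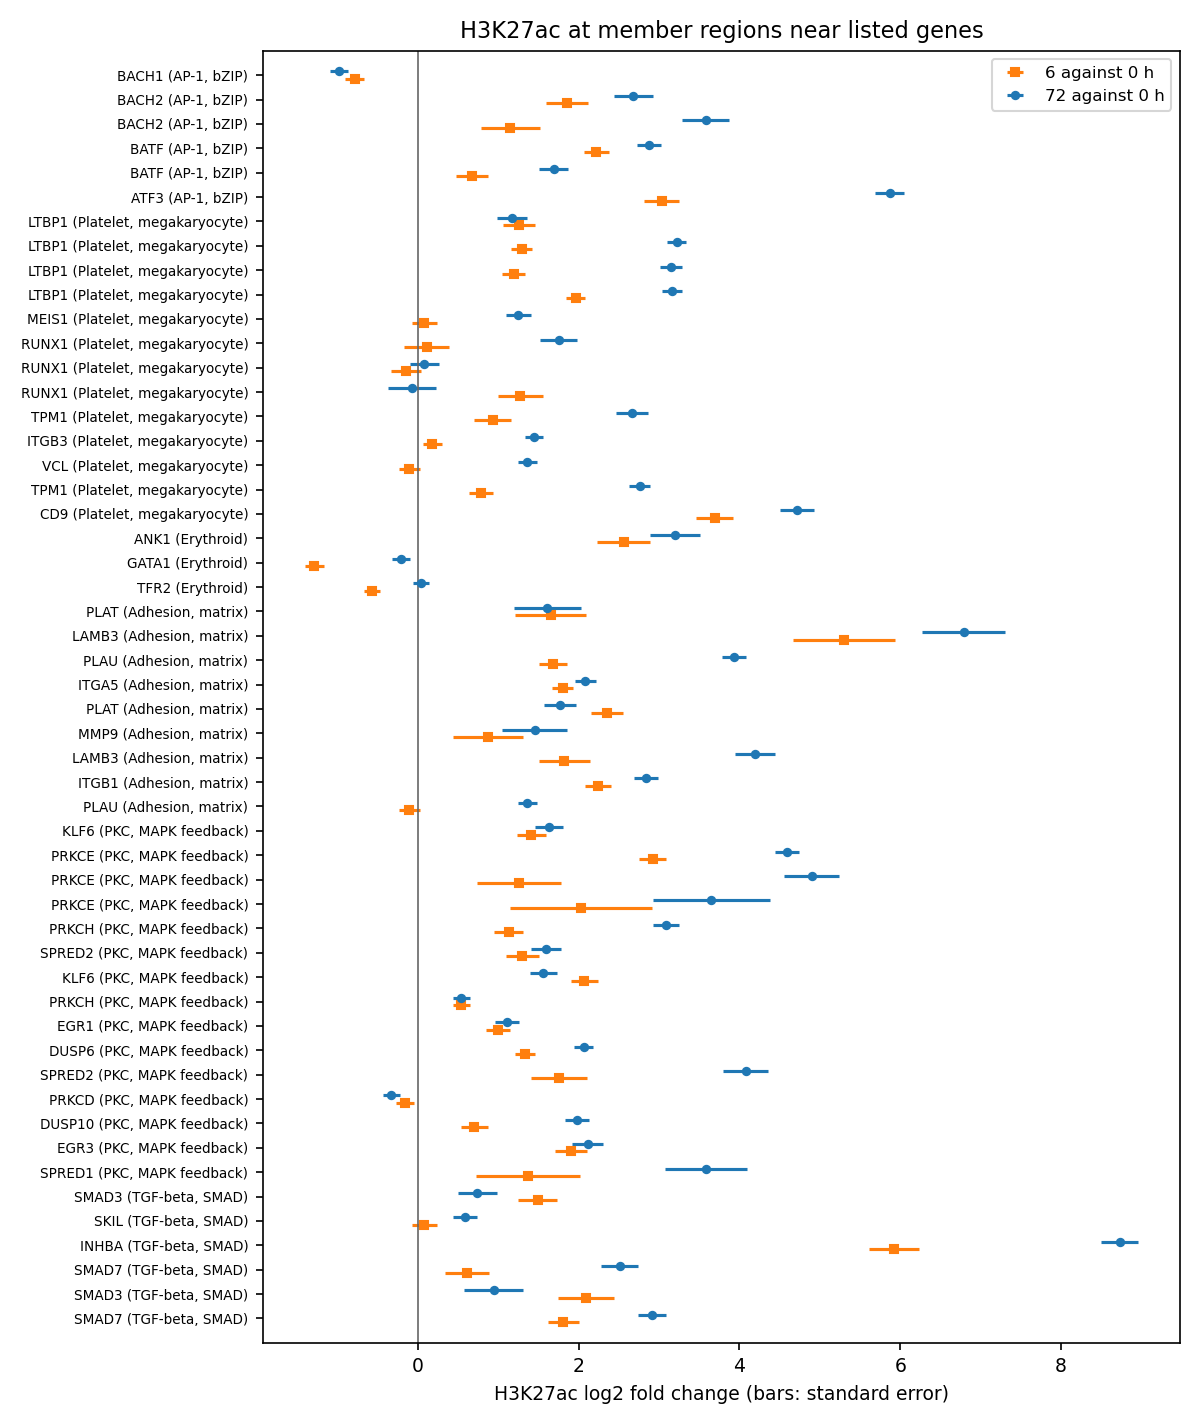
Points are the H3K27ac log2 fold changes at member regions near listed genes, at 6 against 0 h (orange squares) and 72 against 0 h (blue circles), with the standard error as bars; members near 1 listed gene are not drawn. Most lie right of 0 at 72 h, up to 8.73 at INHBA, and of those left of it, the ones in BACH1 and near PRKCD were called (PRKCD right of it with peak-based scaling).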

How the data were processed

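H3K27ac, CTCF, Jun and Rad21 were profiled in 22 libraries. Per the submitters' processing notes, Trim Galore 0.4.3, BWA 0.7.17, SAMtools 1.9, deepTools 3.0.1, MACS2 and bedtools 2.26 were used, and the notes name hg19 and hg38 without a role; contig names in the deposited tables are those of GRCh38. The deposited tables give whole-number read counts by the authors for each region in each library, in regions merged over libraries of one antibody. The deposited peak lists, called per library, give the authors' fold enrichment (a ratio) and −log10 q; both are the authors' values, used only to describe or filter peaks within a list. Unused count columns numbered 0.

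The members and gene lists were chosen with earlier results of these data known. A member took the H3K27ac, Jun or CTCF region that it overlapped. Counts were fitted per antibody over all libraries with edgeR 4.0.16 (R 4.3.3; filterByExpr, TMM, quasi-likelihood test), and p-values were adjusted by Benjamini-Hochberg over all tested regions. CPM was not corrected for copy number, and folds against groups at 0 counts used a floor of 3 counts per library, which covers counting error only. The fit was tested on simulated data before use.

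Named members are the 8 with the highest mean Rad21 at 72 h, the 6 largest H3K27ac rises and falls at 72 against 0 h and the 3 largest Jun rises and falls at 6 against 0 h (by fitted log2 fold change; called, at or above the median level of tested regions, libraries not overlapping), and members within 50 kb of a listed gene. Some members that this rule names are not reported here; counts over lists include them. Promoter sequences and gene spans are RefSeq's (GRCh38.p14). A genome sequence was not used here, so motifs were searched in promoters only. Alternatives covered scaling, DESeq2 1.42.0, filters, the overlap rule, a replicate block and each library left out.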

Additional observations from a re-analysis of the deposited data

How the results depend on the processing

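Having 2 libraries in a group limits the precision, and membership depended on the peak lists: the rule gave 1155 regions with an overlap of at least 50% of the region, 1247 far from CTCF, and between 1894 and 6723 with 1 library left out. All 18 members named by the size of a change kept direction and call in all 234 values recomputed for them. The shares of members called higher ranged over the alternatives from 69.3% to 85.0% for H3K27ac at 6 against 0 h, from 78.6% to 91.6% at 72 against 0 h, and from 56.7% to 71.1% at 72 against 6 h. The low ends of the first and second came from members chosen without Rad21 replicate 2 of 72 h, an alternative added after seeing the data. The shares called lower moved more. At 6 against 0 h, H3K27ac gave 4.24% when scaled to total counts and 4.19% with peak-based scaling. Peak-based scaling gave 3.69% at 72 against 0 h and 7.59% at 72 against 6 h, where DESeq2 gave 8.04%. Jun at 6 against 0 h gave 3.54% with total counts, and between 3.38% and 7.98% with 1 library left out. The median H3K27ac change over all regions at 72 against 0 h was 0.18 as reported, 0.42 scaled to total counts and 0.79 under peak-based scaling. Same-numbered libraries did not deviate together (correlations from -0.00841 to 0.124), and with the replicate block 76.5%, 82% and 62.6% of members were higher in H3K27ac at 6 against 0, 72 against 0 and 72 against 6 h, and 44.6% in Jun. The cause of these differences was not tested. Motif windows around region midpoints were not run.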

Other observations

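Members formed small groups in places. With gaps of at most 25 kb, 249 members fell into 116 groups, the fullest with 4 members at chr7:135728225-135746506 by FAM180A and SLC13A4, where H3K27ac had a median log2 fold change of 4.85 at 72 against 0 h. A group of 3 at chr16:86664583-86681971, whose nearest coding gene was FOXL1, a forkhead factor gene, had a median of 6.46. One at chr10:79320736-79333893, with PPIF and ZMIZ1 as the nearest coding genes, had 4.67. At RUNX1 the group of 3 at chr21:34865435-34898269 had a median of 0.08. Another group of 3 farther along, chr21:35541244-35579373, had 3.25 with all 3 called higher. Its nearest coding genes were RUNX1 and SETD4, but it lay more than 50 kb from the span of RUNX1.

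Several genes held 4 members in their span. All 4 were called higher in H3K27ac at 72 against 0 h in ANO6, a lipid scramblase of platelets, in CELF1, an RNA-binding protein, and in MICAL2, MKLN1 and RAD51B, and 2 of 4 were in FGGY. Over all tested members 82.1% were called higher, and over all regions 43.4%, so nothing particular to these genes is read from the counts.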
